A study of Mus musculus with 72 samples.

Results

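Cachexia is the wasting of body mass that some tumours cause. The data described here ask which genes of the mouse liver respond to it differently in hepatocytes than in the whole organ. They come from the 16 libraries of the 8025 cohort, out of 72 libraries in the series. Each liver was sequenced as hepatocyte nuclei pulled out with beads and as all nuclei of the organ, here called whole liver nuclei. For each gene the log2 ratio of hepatocyte to whole liver nuclei was taken within an animal and compared between 4 cachectic (CX) and 4 PBS-injected animals. A difference above 0 means that the gene rose more, or fell less, in hepatocyte nuclei than in whole liver nuclei.

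All mice were C57BL/6N and carried the transgenes CAG-Sun1/sfGFP and Albumin-Cre. In these mice the Albumin promoter drives Cre in hepatocytes, where Cre switches on a fluorescent nuclear membrane protein that beads can capture. The CX animals bore 8025 tumours and were taken after losing more than 10% of body weight; livers of the cohort were collected at zeitgeber time 9 h. The labels give neither sex nor age. Besides hepatocytes, the liver holds sinusoidal endothelium, Kupffer cells (its resident macrophages), stellate cells, bile duct cells (cholangiocytes) and passing leukocytes. Hepatocytes answer inflammatory cytokines of the IL-6 family, which signal through the shared subunit gp130 and STAT3, by making acute phase proteins. Whole liver nuclei hold the hepatocyte nuclei together with all the others, so that both libraries of an animal overlap in what they measure. In such samples fewer cells of a type and less RNA per cell cannot be told apart.

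Total counts ran from 8.49 M to 33.9 M in hepatocyte nuclei and from 12.2 M to 30.3 M in whole liver nuclei. Hepatocyte markers (22 genes) summed to 19025 to 28417 CPM (counts scaled to a common library size) in hepatocyte nuclei. Marker genes of other cell types were still read in hepatocyte nuclei. The list of 28 endothelial genes kept 41.3% to 57.5% of its whole liver level in PBS animals, and 13.7% to 18.9% without Ppap2b, its most abundant member. The list of 15 cholangiocyte genes kept 81.2% to 97.7% in PBS and 91.3% to 108% in CX animals. Without Pkhd1, its most abundant member, it kept 73.9% to 91.0% and 81.6% to 101%. Whether such RNA was left over from other cells or made in the captured nuclei was not tested. Whole liver nuclei of PBS animal 1 stood apart for several genes described below, and leaving this animal out raised the number of genes called from 54 to 176.

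Of 13195 genes tested, 54 had a cachexia change that differed between the fractions, 0.409% of the genes tested (edgeR quasi-likelihood test with the animal as block, adjusted p under 0.05). The difference was above 0 in 30 genes (0.227%) and below 0 in 24 (0.182%). An unadjusted p under 0.05 was found in 1346 genes (10.2%), above 0 in 752 (5.7%) and below 0 in 594 (4.5%). The ratios of the 4 CX and the 4 PBS animals did not overlap in any of the 54 genes. Because the genes were chosen by a test on the same libraries, this is no separate support for them. Over all genes tested, 8.39% had ratios without overlap. The difference reached 2-fold in 18 of the 30 genes and in 12 of the 24. Taken fraction by fraction, cachexia changed 3382 genes (25.6%; 14.5% higher and 11.1% lower) in hepatocyte nuclei and 3025 (22.9%; 14.5% higher and 8.45% lower) in whole liver nuclei. In both fractions 1448 genes rose and 864 fell.

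The 30 genes with a difference above 0 were mostly genes that rose in both fractions, and more steeply in hepatocyte nuclei. Of them, 24 rose in both, 3 were called in hepatocyte nuclei alone, among them Ica1 and D130040H23Rik, and none fell in hepatocyte nuclei. Their median log2 fold change was 2.59 in hepatocyte and 1.52 in whole liver nuclei. The 24 genes with a difference below 0 were more mixed. Of them, 14 rose in whole liver nuclei, and 10 of these were not called in hepatocyte nuclei, while 8 fell in hepatocyte nuclei. Their median log2 fold change was -0.33 in hepatocyte and 0.61 in whole liver nuclei. Without any one of the 8 animals in turn, all 54 genes kept their sign and 18 were called every time. These 18 are Osmr, Ntf3, Tspan7, Msrb3, Irak3, Cpne8, D130040H23Rik, Alpk1, Col8a1, Adamts2, Ica1, Elmo1 and Msn above 0, and Ankrd55, Lifr, Dock8, Nmnat2 and Dnah11 below 0. Among the others described below, Mt1 and Lyn were called in 1 of the 8 fits, and Il4ra, Runx1, Col4a1 and Ctsb in 2.

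**Figure D1:**
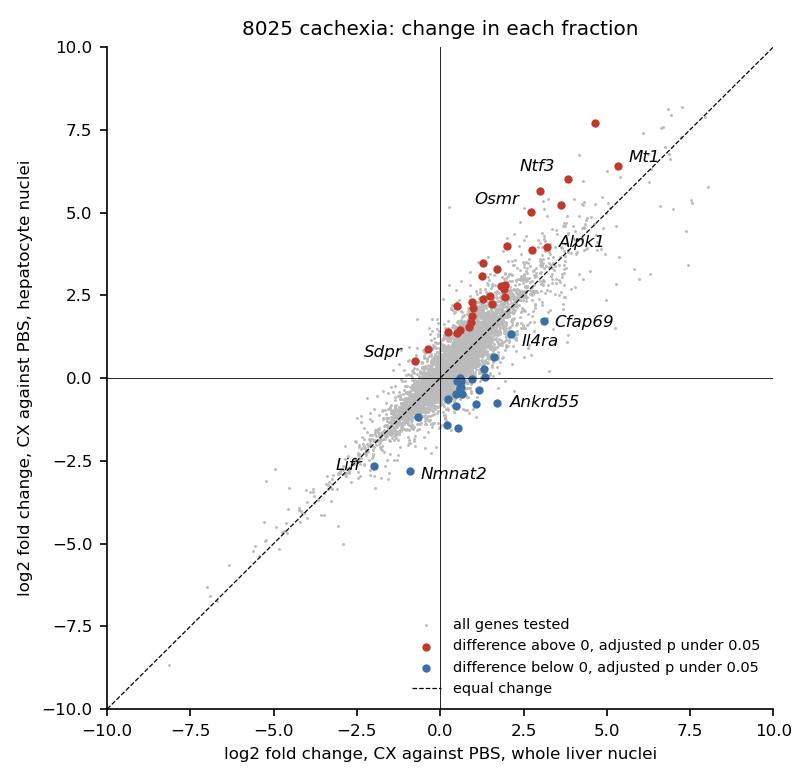
Log2 fold change of CX against PBS animals in whole liver nuclei (x axis) and hepatocyte nuclei (y axis), 1 point per gene, 13195 genes. The 30 genes with a difference above 0 (red) lie above the dashed line of equal change, and the 24 below 0 (blue) lie under it; the grey genes crowd along the line.

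The difference with the smallest p was in a cytokine receptor. Osmr encodes the subunit that lets the gp130 complex receive oncostatin M, a cytokine of the IL-6 family made by leukocytes. The gene lies at chr15:6813577-6874313 (mm10, minus strand), and its reads were counted over this whole span with introns, as for the other genes. In hepatocyte nuclei of PBS animals 1 to 4 Osmr stood at 3.54, 3.41, 4.08 and 4.06 CPM, and in CX animals at 102, 129, 134 and 116 CPM. Its whole liver level was 21.8, 15.2, 20.1 and 25.4 CPM in PBS animals and 132, 146, 140 and 133 CPM in CX animals. Osmr was thus low in PBS hepatocyte nuclei and nearly level with whole liver nuclei in cachexia, with no overlap between groups in either fraction. The log2 fold change was 5.01 ± 0.14 (SE) in hepatocyte and 2.74 ± 0.17 in whole liver nuclei. The log2 difference was 2.25 ± 0.13 (adjusted p = 1.5e-05, 4 animals per group).

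The promoter of Osmr is shown because this gene has the smallest p of the 54. The window runs from 250 bases before to 50 after the RefSeq start (GRCm38.p6, chr15:6874264-6874563, minus strand), and capitals mark a match to TGANTCA, the letters of an AP-1 site. The match begins at an offset of 3 bases from the RefSeq start and lies after it.
Osmr: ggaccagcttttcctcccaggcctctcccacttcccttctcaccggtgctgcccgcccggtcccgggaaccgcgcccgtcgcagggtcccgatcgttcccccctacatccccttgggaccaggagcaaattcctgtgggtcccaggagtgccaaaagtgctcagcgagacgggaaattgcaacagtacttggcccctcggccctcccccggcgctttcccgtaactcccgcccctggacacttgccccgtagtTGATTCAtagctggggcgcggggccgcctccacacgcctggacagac
It holds no TTCNNNGAA, the letters of a STAT site. Searched on both strands, TGANTCA was found in 8.97% and TTCNNNGAA in 9.55% of 27025 genes with promoters in the table. Of the 26 genes above 0 with a promoter there, 1 held TGANTCA (Osmr) and 3 held TTCNNNGAA (Alpk1, Elmo1 and Plekhm3). Of the 19 genes below 0 with a promoter, 1 and 2 did. These shares are close to those of all genes.

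Lifr (chr15:7140542-7197489, plus strand) encodes the receptor subunit for leukaemia inhibitory factor, which also pairs with gp130, and it went the other way. It fell in both fractions and further in hepatocyte nuclei. Hepatocyte nuclei held 908, 2274, 1145 and 561 CPM in PBS animals and 223, 222, 108 and 227 CPM in CX animals. Whole liver nuclei held 717, 1847, 989 and 464 CPM in PBS animals and 279, 289, 159 and 295 CPM in CX animals. In every PBS animal hepatocyte nuclei held more Lifr than whole liver nuclei, and in every CX animal they held less. The log2 difference was -0.69 ± 0.07 (SE; adjusted p = 0.0017).

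Il4ra, the receptor chain for IL-4 and IL-13, rose in both fractions and more in whole liver nuclei. It stood at 19.2, 19.2, 22.6 and 29.4 CPM in PBS hepatocyte nuclei and 62.3, 46.9, 57.0 and 61.5 CPM in CX hepatocyte nuclei. In whole liver nuclei it went from 15.3, 23.3, 29.3 and 29.9 CPM to 111, 107, 97.2 and 112 CPM. Whole liver nuclei were higher than hepatocyte nuclei in all 4 CX animals, while PBS animal 1 went the other way, with a log2 difference of -0.83 ± 0.15 (adjusted p = 0.047). Of 21 tested genes of IL-6, JAK and STAT3 signalling, 1 was called above 0 (Osmr) and 2 below 0 (Lifr and Il4ra). Over all genes tested 0.227% were called above 0 and 0.182% below. The median difference of the 21 was -0.20, against -0.0039 over all genes. Il6st, which encodes gp130 itself, had a difference of -0.40 that missed the threshold (adjusted p = 0.070). Stat3 and its feedback inhibitor Socs3 rose in both fractions, Stat3 by 1.56 and 1.52 and Socs3 by 3.42 and 3.55 on the log2 scale in hepatocyte and whole liver nuclei. Their log2 differences were 0.06 and -0.24 (adjusted p = 0.83 and 0.73).

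**Figure D2:**
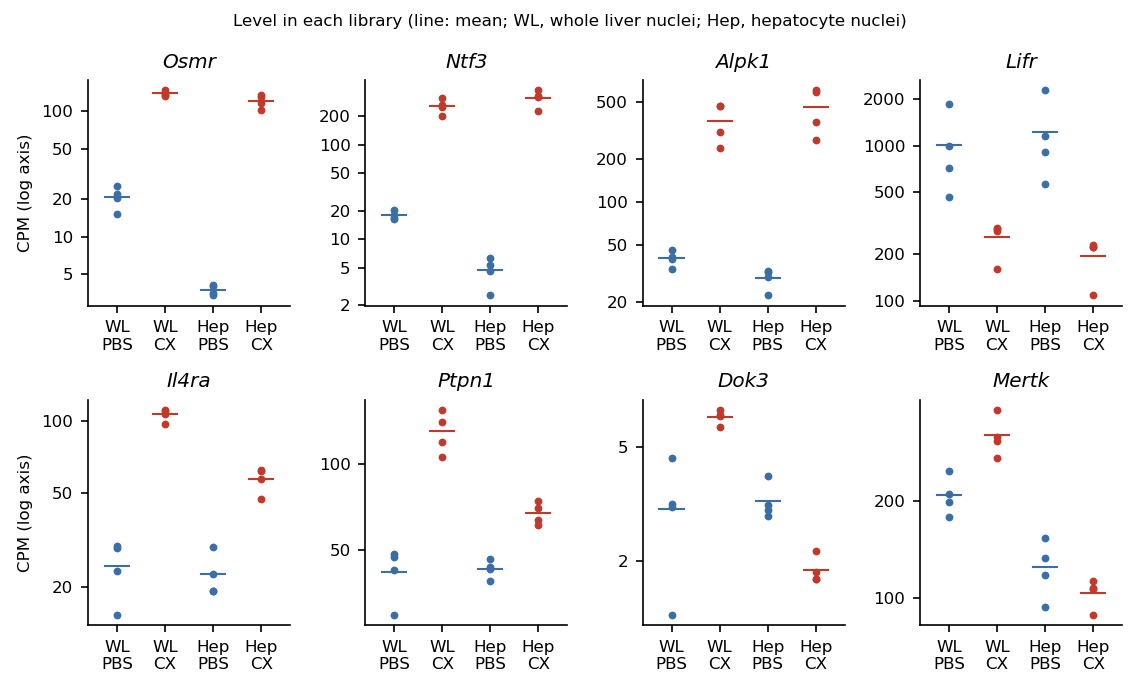
Level of 8 genes in each library (CPM, log axis), with whole liver nuclei (WL) and hepatocyte nuclei (Hep) of 4 PBS (blue) and 4 CX (red) animals; lines are means. Osmr and Ntf3 are far lower in hepatocyte than in whole liver nuclei of PBS animals and about level in CX animals, while Il4ra, Ptpn1, Dok3 and Mertk are higher in whole liver than in hepatocyte nuclei of all CX animals.

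Ntf3 (chr6:126101412-126166744, minus strand) encodes neurotrophin-3, a secreted growth factor. It stood at 5.32, 6.29, 2.56 and 4.65 CPM in PBS hepatocyte nuclei and rose to 375, 225, 316 and 325 CPM in CX animals. Whole liver nuclei went from 18.2, 20.3, 16.3 and 16.7 CPM to 307, 198, 248 and 262 CPM. Hepatocyte nuclei held less Ntf3 than whole liver nuclei in all 4 PBS animals and more in all 4 CX animals. The log2 fold changes were 6.00 ± 0.28 and 3.83 ± 0.17, and the difference was 2.17 ± 0.14 (adjusted p = 2.5e-05).

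Irak3 and Alpk1, which act in innate immune sensing, were above 0. Irak3, which encodes a pseudokinase that restrains Toll-like receptor signalling and is best known from macrophages, went from 3.02, 2.01, 2.45 and 2.88 CPM to 27.6, 20.6, 31.5 and 21.5 CPM in hepatocyte nuclei. Its whole liver level went from 10.4, 6.01, 9.04 and 10.1 CPM to 29.1, 26.5, 32.6 and 29.2 CPM. The groups did not overlap in either fraction, and the log2 difference was 1.53 ± 0.15 (adjusted p = 0.0011). Alpk1, a kinase that senses bacterial sugars, went from 32.7, 22.3, 29.8 and 33.0 CPM to 273, 606, 593 and 366 CPM in hepatocyte nuclei. Its whole liver level went from 41.3, 34.2, 40.2 and 46.1 CPM to 238, 472, 471 and 308 CPM, with a log2 difference of 0.75 ± 0.08 (adjusted p = 0.0017). It was below its whole liver level in hepatocyte nuclei of all PBS animals and above it in all CX animals. Of 19 tested NF-kB subunits and targets, Irak3 was the 1 called, with a median difference of 0.17 over the list. Relb, an NF-kB subunit, had a difference of 1.26 (adjusted p = 0.12).

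Cpne8, a copine that binds membranes in the presence of calcium, rose from 16.3, 15.3, 17.5 and 18.02 CPM to 245, 255, 248 and 235 CPM in hepatocyte nuclei. Its log2 ratio of hepatocyte to whole liver nuclei went from -1.47, -1.16, -0.78 and -1.03 to -0.09, 0.03, 0.05 and -0.03. Cpne8 was thus depleted in PBS animals and level in CX animals, with a difference of 1.13 ± 0.12 (adjusted p = 0.0017). Tspan7, a tetraspanin membrane protein, went in its log2 ratio from -2.64, -2.40, -2.52 and -2.94 to -1.23, -1.36, -1.38 and -1.001. It stayed lower in hepatocyte nuclei in all CX animals, with a difference of 1.38 ± 0.13 (adjusted p = 0.00086). Msrb3, a methionine sulfoxide reductase, had log2 ratios of -1.07, -1.09, -1.01 and -1.10 in PBS animals and -0.34, -0.18, -0.09 and -0.26 in CX animals. Its difference was 0.85 ± 0.08 (adjusted p = 0.0010).

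**Figure D3:**
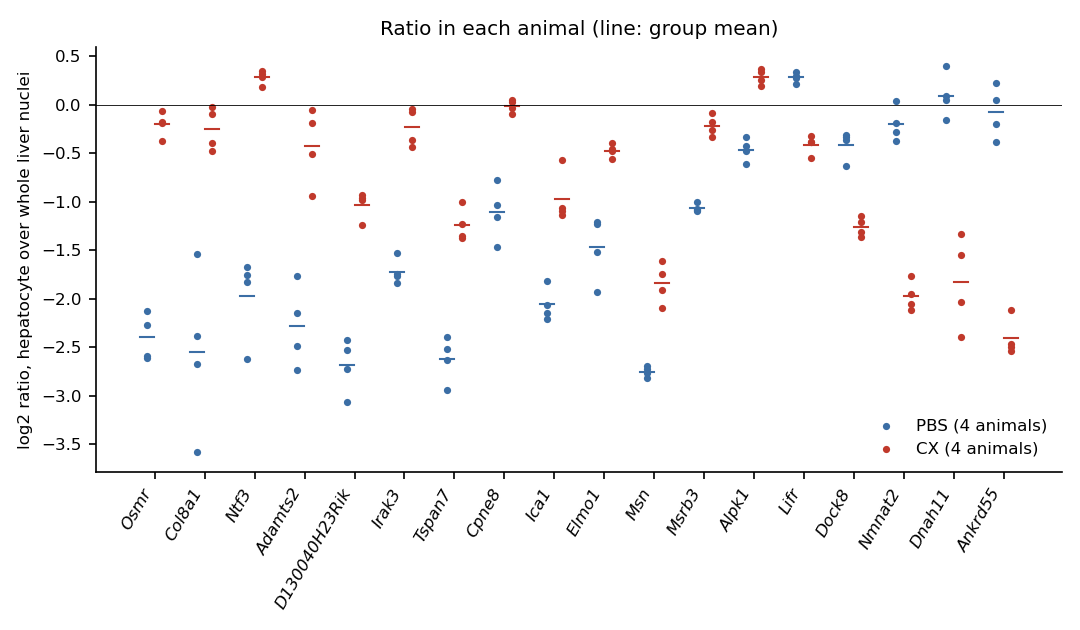
Log2 ratio of hepatocyte to whole liver nuclei in each of 4 PBS (blue) and 4 CX (red) animals, with group means as lines, for the 18 genes called without any one animal. In the 13 genes on the left all CX animals lie above all PBS animals, and in the 5 on the right, Lifr to Ankrd55, all lie below. The genes were chosen by a test on these same libraries.

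Col8a1, Adamts2, Prelp and Col4a1, which encode matrix proteins or a matrix protease, were above 0. The first 3 are not in the list of extracellular matrix genes, of whose 30 tested members 1 was called (Col4a1) with a median difference of 0.06, so matrix genes as a group are not shown to differ. Col8a1, a short-chain collagen, stood at 1.62, 1.005, 0.466 and 1.83 CPM in PBS hepatocyte nuclei (53, 23, 4 and 28 counts) and at 15.1, 17.3, 11.7 and 13.8 CPM in CX hepatocyte nuclei. Whole liver nuclei went from 8.89, 6.96, 6.74 and 5.54 CPM to 21.0, 18.4, 15.5 and 14.04 CPM. The rise was larger in hepatocyte nuclei, where the level came close to that of whole liver nuclei, with a log2 difference of 2.21 ± 0.28 (adjusted p = 0.0063). Adamts2, the protease that trims the amino end of procollagen, went from 3.91, 3.93, 3.26 and 2.56 CPM to 85.0, 35.6, 28.8 and 68.6 CPM in hepatocyte nuclei. Its whole liver level went from 13.6, 17.8, 18.8 and 17.7 CPM to 88.1, 50.7, 55.5 and 78.5 CPM, and the difference was 1.83 ± 0.24 (adjusted p = 0.0063). Both fractions rose without overlap between groups, and CX animals 1 and 4 were the high ones in both.

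Prelp, a small leucine-rich proteoglycan, and Col4a1, a chain of basement membrane collagen, followed with differences of 1.67 ± 0.28 and 1.02 ± 0.19 (adjusted p = 0.031 and 0.047). Prelp in hepatocyte nuclei was 6.46, 7.11, 37.8 and 11.04 CPM in CX animals against 1.40 to 2.29 CPM in PBS animals, so CX animal 3 stood well above the others. Col4a1, chosen after its values were seen, stood at 25.9, 43.0, 71.6 and 48.4 CPM in CX hepatocyte nuclei against 8.65 to 9.52 CPM in PBS. The marker list of stellate cells and fibroblasts (25 genes), the main matrix producers of the liver, did not rise in hepatocyte nuclei, where its sum was 161 to 192 CPM in PBS and 145 to 195 CPM in CX animals. None of its 24 tested genes was called for the difference by edgeR, and 1 had an unadjusted p under 0.05, below 0 (4.5% of all genes).

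Msn, Elmo1 and Runx1, also chosen after their values were seen, are abundant in blood or endothelial cells. Msn encodes moesin, which ties actin to the cell membrane, and Elmo1 an activator of Rac in cell engulfment and migration. Runx1 encodes a transcription factor of blood formation. Hepatocyte nuclei of CX animals held 18.1, 21.7, 20.8 and 19.7 CPM of Msn against 4.78 to 6.11 CPM in PBS. For Runx1 they held 80.6, 99.7, 97.3 and 70.0 CPM against 10.5 to 15.6 CPM. Both stayed well below whole liver nuclei, where CX animals had 60.3 to 89.2 CPM of Msn and 220 to 293 CPM of Runx1. Elmo1 rose from 35.1 to 55.4 CPM in PBS to 177 to 353 CPM in CX hepatocyte nuclei. The log2 differences were 0.92 ± 0.13, 0.99 ± 0.14 and 0.92 ± 0.16 for Msn, Elmo1 and Runx1 (adjusted p = 0.0093, 0.0093 and 0.041). Beside them, the 28 endothelial markers without Ppap2b summed to 238 to 350 CPM in PBS and 342 to 494 CPM in CX hepatocyte nuclei, and their share of the whole liver level was 16.5% ± 2.21 (SD, n = 4) and 20.3% ± 2.42. With Ppap2b the share was 51.0% ± 7.24 in PBS and 42.9% ± 1.77 in CX animals. None of the 28 was called for the difference by edgeR. An unadjusted p under 0.05 occurred in 3 above 0 and in 1 below (5.7% and 4.5% of all genes). The part of these markers in the differences of Msn, Elmo1, Runx1 and Sdpr was not tested.

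The difference of Atp6v0a4 rests on a few counts in PBS animals. Atp6v0a4, a subunit of the proton pump that acidifies vesicles, had 6, 3, 1 and 4 counts in PBS hepatocyte nuclei and 13.9, 2.58, 7.72 and 12.2 CPM in CX. It rose in both fractions, and in all 4 CX animals the level was higher in hepatocyte nuclei. The fitted difference was 2.78 ± 0.43 (adjusted p = 0.019), and at such counts its size depends on the prior count.

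Mt1 encodes metallothionein 1, a zinc-binding protein of the acute phase response. It went from 1.65, 1.18, 0.932 and 2.16 CPM to 115, 139, 95.6 and 164 CPM in hepatocyte nuclei, and from 3.50, 1.19, 1.58 and 2.89 CPM to 89.5, 103, 67.1 and 117 CPM in whole liver nuclei. The rise was steep in both, with a log2 difference of 1.09 ± 0.19 (adjusted p = 0.035). Leaving out each animal in turn, Mt1 was called in 1 of 8 fits, with an adjusted p of up to 0.127. Mt1 was the 1 gene called of 29 tested acute phase genes and was chosen after its values were seen. Its promoter is shown because metallothioneins are the textbook case of metal response elements (GRCm38.p6, chr8:94178839-94179138, plus strand). Capitals mark 3 matches to TGCACNC or TGCGCNC, the core letters of that element.
Mt1: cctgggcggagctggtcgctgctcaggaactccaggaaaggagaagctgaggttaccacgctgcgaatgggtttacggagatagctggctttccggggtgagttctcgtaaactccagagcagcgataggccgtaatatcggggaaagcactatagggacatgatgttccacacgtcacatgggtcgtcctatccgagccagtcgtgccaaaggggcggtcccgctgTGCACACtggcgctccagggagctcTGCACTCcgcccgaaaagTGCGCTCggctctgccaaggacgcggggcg
The same letters occurred on either strand in 10 of the 26 genes above 0 with a promoter and in 8 of the 19 below 0, against 28.2% of all genes. The letters TTGCNNAA of a C/EBP site occurred in 1 and 4 of them, against 12.2%, and GAGGAAG of a PU.1 site in 4 and 4, against 15.4%.

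Acute phase genes rose in both fractions. Of 29 tested, 25 rose in hepatocyte and 26 in whole liver nuclei, against 14.5% of all genes in each, and none fell. Their median difference was 0.24, and 13 of 29 had an unadjusted p under 0.05 above 0, against 5.7% of all genes. Lcn2, the siderophore binder lipocalin 2, stood at 42.3, 60.2, 128 and 73.2 CPM in CX hepatocyte nuclei and 40.7, 47.7, 104 and 60.5 CPM in CX whole liver nuclei, with at most 1.17 CPM in any PBS library. Its difference of 1.35 missed the threshold (adjusted p = 0.28), as did that of serum amyloid Saa1 (0.93, adjusted p = 0.38). Of 35 tested complement and coagulation genes none was called, and 14 had an unadjusted p under 0.05 above 0. Of the 22 hepatocyte markers, 7 did, with a median difference of 0.16 and none called. Beside this, the summed hepatocyte markers in hepatocyte nuclei were 102% ± 10.7 (SD, n = 4) of whole liver nuclei in PBS and 121% ± 5.77 in CX animals. The part of this shift in the small differences of hepatocyte genes was not tested.

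A few genes above 0 moved in other ways. Sdpr, also called Cavin2, a protein of caveolae that is abundant in endothelium, fell in whole liver nuclei from 15.0, 12.8, 12.6 and 13.98 CPM to 8.82, 8.30, 7.43 and 7.79 CPM. Hepatocyte nuclei held 2.05, 2.62, 1.98 and 1.64 CPM in PBS and 3.11, 3.04, 3.23 and 2.46 CPM in CX animals, a change that was not called (adjusted p = 0.12). The log2 difference was 1.27 ± 0.22 (adjusted p = 0.032). Pdgfd, a platelet-derived growth factor, was not called in either fraction alone. Its log2 ratio went from -2.17, -1.65, -1.96 and -2.01 to -1.13, -1.03, -0.32 and -1.09, a difference of 1.08 ± 0.19 (adjusted p = 0.036). Ica1, an autoantigen of pancreatic islets, rose from 10.4, 9.92, 10.5 and 9.63 CPM to 20.05, 24.9, 37.9 and 22.1 CPM in hepatocyte nuclei, while whole liver nuclei overlapped between groups (37.2 to 48.5 and 43.0 to 56.1 CPM). These genes were chosen after their values were seen.

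Themis, a gene of T cell maturation, was the 1 called of 11 tested genes of T and NK cells. It stood at 25.6, 6.64, 2.21 and 9.70 CPM in PBS and at 12.6, 55.8, 105 and 24.97 CPM in CX hepatocyte nuclei, with overlap between groups, and the difference was 1.16 ± 0.21 (adjusted p = 0.041). In CX animals 2, 3 and 4 the level was higher in hepatocyte than in whole liver nuclei. No member of that list was called in either fraction alone. Without Themis the list kept 16.2% to 20.6% of its whole liver level in PBS and 20.3% to 25.4% in CX animals.

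Whether a gene is normally depleted by the bead purification was measured in libraries that share no animal with these, those of 4 PBS mice of the MC38 cohort, which have the same strain and genotype. A gene was counted as depleted when its log2 ratio of hepatocyte to whole liver nuclei was -1 or lower with an adjusted p under 0.05, and as retained when it was -0.25 or higher. Of the 30 genes above 0, 20 were depleted there, 8 lay between and 2 were retained (Atp6v0a4 and Mt1). Over all genes tested 16.5% were depleted and 74.3% retained. Osmr stood at 9.89% of its whole liver level in those PBS hepatocyte nuclei, Col8a1 at 10.4%, Adamts2 at 10.7%, Irak3 at 23.6% and Ntf3 at 24.5%. Of the 24 genes below 0, 5 were depleted, 13 lay between and 6 were retained. Read by class, the difference was called in 25 of 2183 depleted genes (1.15%), 21 of 1210 genes between (1.74%) and 8 of 9802 retained genes (0.0816%).

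Over all depleted genes the median difference was 0.12, with quartiles of -0.18 and 0.42. Stab2, a scavenger receptor of sinusoidal endothelium, stood at 52.6 to 99.9 CPM in PBS and 98.6 to 147 CPM in CX hepatocyte nuclei, with a difference of 0.41 (adjusted p = 0.33). Clec4f, a lectin of Kupffer cells, rose from 5.74, 6.03, 7.69 and 5.37 CPM to 19.5, 14.7, 14.8 and 17.4 CPM in hepatocyte nuclei and from 21.7, 36.6, 33.4 and 37.3 CPM to 78.8, 101, 93.3 and 91.7 CPM in whole liver nuclei. The log2 fold changes were 1.43 ± 0.16 and 1.5 ± 0.18, and the difference was -0.10 (adjusted p = 0.87). Ccr2, the chemokine receptor of recruited monocytes, rose from 0.791 to 1.54 CPM to 7.43 to 16.2 CPM in whole liver nuclei and stayed at or below 2.28 CPM in hepatocyte nuclei, with a difference of 0.44 (adjusted p = 0.70).

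Among the genes below 0, Ankrd55 (chr13:112288451-112384002, plus strand), which encodes an ankyrin repeat protein, had the widest difference. In whole liver nuclei it stood at 7.79, 6.25, 6.74 and 2.77 CPM in PBS and at 25.3, 21.1, 9.76 and 21.3 CPM in CX animals. In hepatocyte nuclei it went from 6.75, 7.34, 6.99 and 2.10 CPM to 4.38, 3.55, 2.17 and 3.75 CPM. It rose in whole liver nuclei (log2 fold change 1.71 ± 0.36), and in hepatocyte nuclei the groups overlapped (-0.75 ± 0.37, adjusted p = 0.17). The log2 difference was -2.39 ± 0.19 (adjusted p = 0.00014).

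Nmnat2 and Dnah11 fell in hepatocyte nuclei without a called change in whole liver nuclei. Nmnat2, an enzyme of NAD synthesis best known from neurons, went from 3.61, 3.19, 5.83 and 5.505 CPM to 0.777, 0.860, 0.354 and 0.589 CPM in hepatocyte nuclei. Whole liver nuclei went from 4.42, 3.64, 7.603 and 5.36 CPM to 2.90, 4.08, 1.67 and 2.78 CPM, and the difference was -1.92 ± 0.24 (adjusted p = 0.0053). Dnah11, a dynein of motile cilia, went from 5.68, 4.02, 5.13 and 4.91 CPM to 1.92, 2.18, 1.14 and 1.66 CPM in hepatocyte nuclei. In whole liver nuclei its groups overlapped (3.87 to 5.34 and 3.55 to 9.27 CPM), and the difference was -1.97 ± 0.26 (adjusted p = 0.0068). Dock8, a guanine nucleotide exchange factor known from leukocytes, went from 91.9 to 162 CPM to 70.2 to 85.0 CPM in hepatocyte nuclei. Its whole liver groups overlapped (128 to 205 and 156 to 215 CPM), and the difference was -0.85 ± 0.09 (adjusted p = 0.0017).

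Dok3 (chr13:55523235-55528538, minus strand) was the 1 gene of the 54 called in opposite directions. It encodes an adaptor that dampens signalling in B cells and myeloid cells. Hepatocyte nuclei held 2.87, 3.01, 3.96 and 3.15 CPM in PBS and 1.72, 1.72, 2.17 and 1.82 CPM in CX animals. Whole liver nuclei held 1.29, 3.17, 4.59 and 3.08 CPM in PBS and 6.44, 6.48, 5.91 and 6.79 CPM in CX animals. It fell by 0.79 ± 0.21 and rose by 1.08 ± 0.32 on the log2 scale (adjusted p = 0.023 and 0.035), and the difference was -1.97 ± 0.30 (adjusted p = 0.018). PBS animal 1 was low in whole liver nuclei.

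Mertk, Fermt3, Irf5 and Lyn were also below 0; they were grouped after their values were seen, and no list of genes was tested for this group. Mertk, the receptor with which macrophages engulf dying cells, rose in whole liver nuclei from 198, 249, 178 and 211 CPM to 273, 318, 386 and 308 CPM. In hepatocyte nuclei it stood at 133, 154, 93.2 and 117 CPM in PBS and 113, 88.4, 107 and 106 CPM in CX animals, which overlap, and the difference was -0.87 ± 0.13 (adjusted p = 0.018). Fermt3, the kindlin that activates leukocyte integrins, rose in whole liver nuclei (log2 fold change 1.17 ± 0.28) and stayed at 2.47 to 5.72 CPM in all hepatocyte libraries. Its log2 ratio was -0.31, -0.49, -1.41 and -1.13 in PBS animals and -1.85, -2.92, -2.26 and -2.53 in CX animals, a difference of -1.58 ± 0.29 (adjusted p = 0.044). The transcription factor Irf5 fell in hepatocyte nuclei from 14.6, 17.8, 17.7 and 8.06 CPM to 8.10, 9.80, 6.85 and 7.77 CPM (adjusted p = 0.032), with PBS animal 4 inside the CX range. The groups also overlapped in whole liver nuclei (8.89 to 22.6 and 19.2 to 25.6 CPM). Its difference was -1.36 ± 0.25 (adjusted p = 0.044). Lyn, a Src family kinase, was not called in either fraction alone and differed by -0.56 ± 0.10 (adjusted p = 0.041). Mertk, Irf5 and Lyn were not among the genes named by rule.

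Beside these genes, the Kupffer cell and macrophage list (21 genes) went up in whole liver nuclei, from a sum of 557 to 696 CPM in PBS to 1074 to 1551 CPM in CX animals. In hepatocyte nuclei the sum was 247 to 333 and 284 to 376 CPM, so its share of the whole liver level went from 45.5% ± 5.01 (SD, n = 4) to 25.4% ± 4.38. Mertk gave 30.0% of that sum; without it the share went from 38.4% ± 5.13 to 22.9% ± 3.85. None of the 21 genes is at 0. Of the 21, 20 rose in whole liver nuclei and 17 in hepatocyte nuclei, against 14.5% of all genes in each. Only Mertk was called for the difference (0.182% of all genes were called below 0). In PBS animals of the MC38 cohort Mertk had a mean log2 ratio of -0.89, against a median of -2.82 over the list. The list's median difference was -0.09. An unadjusted p under 0.05 occurred in 0 above 0 and in 3 below 0 (5.7% and 4.5% of all genes). None of 16 tested genes of the monocyte and recruited myeloid list was called for the difference by edgeR. Its median difference was 0.05. An unadjusted p under 0.05 occurred in 1 above 0 and in 3 below 0 (5.7% and 4.5% of all genes). Of the 16, 14 rose in hepatocyte and 15 in whole liver nuclei (14.5% of all genes in each). Without Fn1, its most abundant member, that list kept 33.4% ± 4.23 of its whole liver level in PBS and 30.4% ± 2.49 in CX animals. The neutrophil list (22 genes) rose from 34.4 to 61.3 CPM to 127 to 168 CPM in whole liver nuclei and from 19.9 to 41.9 CPM to 75.3 to 92.5 CPM in hepatocyte nuclei. Wfdc21 gave 60.2% of it, and without Wfdc21 its share of the whole liver level was 21.5% to 31.2% in PBS and 19.1% to 30.6% in CX animals. The cholangiocyte list (15 genes) summed to 317 to 403 CPM in PBS hepatocyte nuclei. In CX hepatocyte nuclei it stood at 407, 449, 1052 and 401 CPM, so CX animal 3 stood well above the others. None of its 13 tested genes was called for the difference by edgeR, and 4 had an unadjusted p under 0.05 above 0 (5.7% of all genes). The part of these marker changes in the differences of single genes was not tested.

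**Figure D4:**
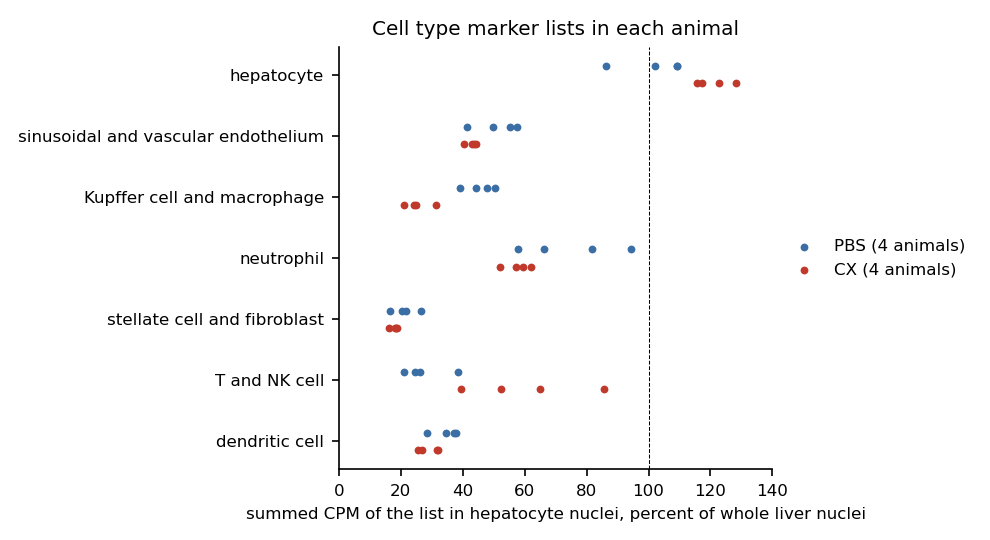
Summed CPM of 7 cell type marker lists in hepatocyte nuclei, as percent of the sum in whole liver nuclei of the same animal, in 4 PBS (blue) and 4 CX (red) animals. Single genes lead some sums: Ppap2b gave 45.1% of the endothelial, Themis 51.9% of the T and NK cell, Wfdc21 60.2% of the neutrophil and Mertk 30.0% of the Kupffer cell sum. Without Ppap2b the mean endothelial share was 16.5% in PBS and 20.3% in CX animals. Without Themis the mean T and NK cell share was 18.9% and 22.8%. The Kupffer cell share is lower in all CX animals (21.0% to 31.5%) than in all PBS animals (39.0% to 50.6%). Without Mertk its mean was 38.4% in PBS and 22.9% in CX animals. Of the 21 Kupffer cell genes only Mertk was called for the difference, and their median difference was -0.09. The hepatocyte share is higher in all CX animals (116% to 128%) than in all PBS animals (86.4% to 109%).

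Ptpn1, Ctsb and Pltp were also below 0. Ptpn1, the phosphatase PTP1B that acts on the insulin receptor and on JAK2, rose in whole liver nuclei from 29.7, 48.2, 42.4 and 47.2 CPM to 106, 139, 154 and 119 CPM. In hepatocyte nuclei it rose from 42.9, 46.6, 38.8 and 43.6 CPM to 63.8, 70.1, 74.2 and 61.0 CPM. PBS animal 1 was low in whole liver nuclei, and in all CX animals whole liver nuclei were the higher ones, with a difference of -0.997 ± 0.15 (adjusted p = 0.013). Ctsb, a lysosomal protease, rose in whole liver nuclei from 57.4, 65.9, 77.5 and 90.0 CPM to 100, 113, 126 and 109 CPM and stayed at 51.4 to 75.8 CPM in hepatocyte nuclei, with a difference of -0.71 ± 0.12 (adjusted p = 0.032). Pltp, the phospholipid transfer protein of plasma lipoproteins, fell in hepatocyte nuclei from 34.3, 11.9, 24.3 and 33.3 CPM to 10.6, 12.4, 9.45 and 6.11 CPM, with PBS animal 2 within the range of the CX animals. It did not change detectably in whole liver nuclei (13.2 to 28.5 and 17.4 to 34.9 CPM), and the difference was -1.58 ± 0.27 (adjusted p = 0.037). Ptpn1 and Ctsb were chosen after their values were seen.

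Bmp2k, a kinase of endocytosis, rose in whole liver nuclei from 76.5 to 107 CPM to 126 to 171 CPM, while hepatocyte nuclei overlapped (68.2 to 94.8 and 68.7 to 104 CPM). Its difference was -0.61 ± 0.08 (adjusted p = 0.0063). Rbfox1, a splicing factor best known from neurons and muscle, rose in whole liver nuclei (log2 fold change 1.34 ± 0.22) and stayed at 7.29 to 15.2 CPM in hepatocyte nuclei. Its log2 ratio went from -0.66 to 0.04 in PBS animals to -2.13 to -1.09 in CX animals, a difference of -1.37 ± 0.22 (adjusted p = 0.027). Cfap69, a protein of cilia and flagella, rose in both fractions, from 1.74, 1.05, 3.50 and 2.03 CPM to 9.66, 4.53, 7.84 and 4.23 CPM in hepatocyte nuclei and from 1.74 to 3.63 CPM to 19.8 to 29.6 CPM in whole liver nuclei. Its difference was -1.41 ± 0.26 (adjusted p = 0.047).

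Lists of metabolic genes differed in how many members changed, and of those given here only Pltp was called for the difference. Of 20 genes of the fatty acid synthesis list, 16 fell in hepatocyte and 15 in whole liver nuclei, against 11.1% and 8.45% of all genes. The 1 member called for the difference was Pltp, the phospholipid transfer protein (0.182% of all genes were called below 0). No other member of that list was called for it. Among 34 drug and steroid metabolism genes 16 fell in each, and of 20 clock genes 10 fell in each. No gene of either list was called for the difference by edgeR, and 8 and 1 had an unadjusted p under 0.05 above 0, against 5.7% of all genes, so that the clock count is near that share. Amino acid and urea genes stood near the share of all genes changed in hepatocyte nuclei (25.6%), with 6 of 32 higher and 3 lower. So did fatty acid oxidation and ketogenesis, with 1 of 22 higher and 4 lower, and bile acid genes, with 1 of 18 higher and 3 lower. Of 24 pathway lists, 7 held a called gene. Hsd3b5, a steroid dehydrogenase of male mouse liver, fell by 8.67 and 8.13 on the log2 scale in hepatocyte and whole liver nuclei, and its difference was -0.63 (adjusted p = 0.50). The clock repressor Nr1d1 fell by 1.56 and 1.49 (difference -0.11, adjusted p = 0.88). Albumin (Alb) had a difference of 0.25 (adjusted p = 0.54), and Saa3 one of -0.35 (adjusted p = 0.85). S100a8, a neutrophil gene, did not pass the filter on low counts.

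The same difference was measured in 2 further cohorts, in 1 fit of all 72 libraries with the animal as block. C26 tumours cause cachexia in another strain, BALB/c, whose animals were also taken after losing more than 10% of body weight, and MC38 tumours grow in C57BL/6N mice without weight loss; each cohort has its own 4 PBS animals. In C26 cachexia the difference was called in 62 of 14054 genes (0.441%), and in MC38 in 0 (0%). For MC38, 265 genes (1.89%) had an unadjusted p under 0.05 in the 72-library fit, and neither edgeR nor DESeq2 on that cohort alone called a gene. Of the 30 genes above 0 in 8025 cachexia, 27 were above 0 in C26, 23 with an unadjusted p under 0.05, against 4.71% of all genes (7.96% in either direction), and 9 were called there. Another 2 of the 30 had an unadjusted p under 0.05 below 0 in C26, and 1 of them was called in that direction. Of the 24 genes below 0, 22 were below 0 in C26, 13 with an unadjusted p under 0.05, against 3.25% of all genes, and 3 were called. With edgeR on the C26 cohort alone 19 of the 30 (3.54% of all genes) and 11 of the 24 (1.14%) had such a p.

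In MC38 animals 4 of the 30 genes above 0 had an unadjusted p under 0.05 in the same direction (background 1.1%), and 1 of the 24 below 0 had one (0.79%). Fitted on the MC38 cohort alone, edgeR gave 3 of the 30 (1.69% of all genes) and 7 of the 24 (1.23%), and DESeq2 gave 3 (1.75%) and 4 (0.26%). In the 72-library fit 17 of the 30 were above 0 in MC38 and 20 of the 24 below. Osmr had a log2 difference of 1.38 in C26 (adjusted p = 0.0012) and 0.20 in MC38 (unadjusted p = 0.48). Ntf3 had 1.65 (adjusted p = 0.0016) and 0.36 (unadjusted p = 0.27), Alpk1 1.05 (adjusted p = 0.00035) and 0.43 (unadjusted p = 0.0060), and Ankrd55 -1.81 (adjusted p = 0.0015) and -0.38 (unadjusted p = 0.39). Lifr had -0.48 in C26, short of the threshold (adjusted p = 0.084), and -0.05 in MC38. Mt1, above 0 in 8025, was at -1.52 in C26 (unadjusted p = 0.0018, adjusted p = 0.16).

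**Figure D5:**
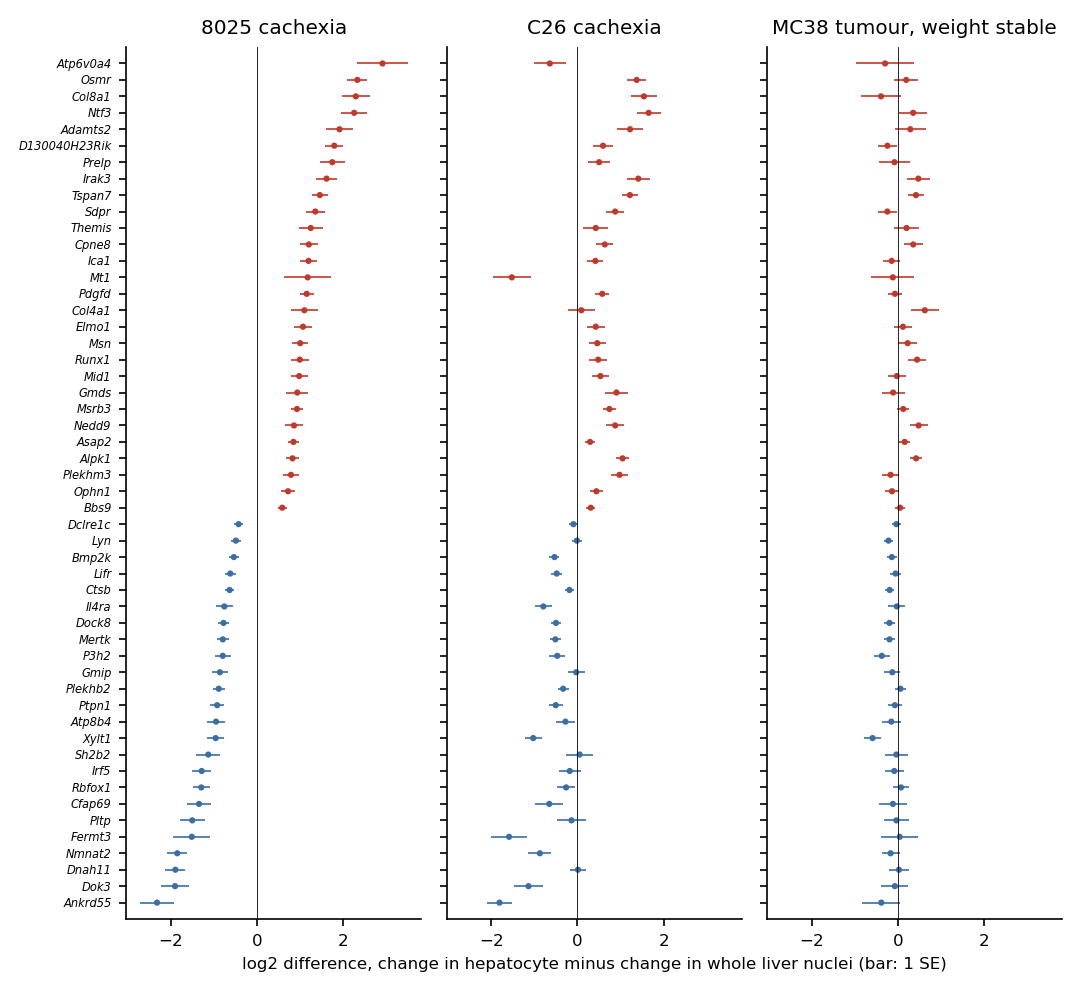
Log2 difference (change in hepatocyte minus change in whole liver nuclei; point, with a bar of 1 SE) of 52 of the 54 genes in 8025 cachexia, C26 cachexia and MC38 animals, from 1 fit of 72 libraries. The genes were chosen in the left panel; in C26, 26 of 28 red genes lie above 0 and 22 of 24 blue genes below, while MC38 values crowd near 0.

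Whether the difference itself differed between cohorts was tested in the same fit. Between 8025 and MC38 it differed in 11 genes (0.0783%; 0.0498% higher and 0.0285% lower), 9 of them among the 54: Osmr, D130040H23Rik, Sdpr, Ica1 and Pdgfd were higher and Dnah11, Nmnat2, Rbfox1 and Plekhb2 lower in 8025. The size was 2.13 for Osmr (adjusted p = 0.0061) and -1.92 for Dnah11. With the 8025 and MC38 libraries alone 10 genes were called, 2 above 0 and 8 below, in place of 7 and 4. In that fit Sdpr, Ica1, Pdgfd and Plekhb2 lost their calls (adjusted p = 0.11, 0.14, 0.11 and 0.058), while Osmr, D130040H23Rik, Dnah11, Nmnat2 and Rbfox1 were called. Between 8025 and C26 it differed in 3 genes (0.0213%; 0.00712% higher and 0.0142% lower), 2 of them among the 54, with Dnah11 at -1.91. Strain and tumour cannot be told apart in that comparison. With the 8025 and C26 libraries alone Dnah11 lost its call (adjusted p = 0.26). Without a single animal the first count ran from 6 to 14 and the second from 2 to 47, the highest without C26 PBS animal 1.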

How the data were processed

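Counts of 20105 genes in 72 libraries were deposited by the authors as raw whole numbers, covering each gene from start to end, introns included, per the file headers. The submitters' processing notes name mm10, STAR 2.4.2a and DESeq2 1.24.0 without roles. Strand use in counting is not given in the sources used here, so reads of overlapping or antisense genes may be shared. Libraries held total RNA of nuclei without poly-A selection, per the labels' protocols.

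The 16 libraries of the 8025 cohort were fitted with edgeR 4.0.16 (R 4.3.3): filterByExpr by group (13195 genes), TMM, animal as block, and a fraction by cachexia term tested with the quasi-likelihood F test (6 residual degrees of freedom). The call threshold was 0.05 after Benjamini-Hochberg adjustment, and adjusted p values come from this test where no other tool is given. Each fraction was also fitted alone. The SE is the log2 value over the root of F. CPM values use TMM sizes, and per-animal log2 ratios a prior count of 2. Both libraries of an animal share its number in the labels, and their deviations from the group means correlated at 0.375 to 0.852, best with the own animal in 8 of 8. In 24 pairs of replicate libraries the counts differed far more than counting error allows (chi-square 22.7 to 157 for each degree of freedom).

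Genes named by rule are the 8 highest and 8 lowest differences and the 5 smallest p in each direction, among called genes with at least 5 CPM in a group and no overlap of ratios, and the 2 of smallest p in lists with at least 2 called members. Genes called in opposite directions and 11 followed genes were added. Members, 36 gene lists and the rule were chosen with earlier results of these data known. Values of 2 of the called genes are not reported here, though counts include them. Promoters are from RefSeq (GRCm38.p6), and 26 and 19 called genes matched. Alternatives were DESeq2 1.42.0, limma 3.58.1, other scaling, filters and blocks, and leaving out each animal; the code was tested on simulated data.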

Additional observations from a re-analysis of the deposited data

Results flagged for a closer look

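In 9 of 94 groups of 4 animals checked (47 genes), the log2 ratio of hepatocyte to whole liver nuclei of 1 animal lay far from the other 3; chance flags about 1 group in 20. PBS animal 3 stood at -2.62 for Ntf3 (others -1.82 to -1.68), at 0.24 for Cfap69 (-0.81 to -0.63) and at -2.06 for Themis (-0.95 to -0.81). PBS animal 1 stood at 0.53 for Ptpn1 (-0.13 to -0.05) and at -0.17 for Hsd3b5 (0.29 to 0.32). CX animal 3 stood at -2.12 for Ankrd55 (-2.54 to -2.47), at -1.40 for Dok3 (-1.85 to -1.84) and at -0.57 for Ica1 (-1.14 to -1.07). CX animal 2 stood at 0.69 for Hsd3b5 (-0.84 to -0.64).

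The difference between fractions itself differed between cohorts in the genes that follow, by edgeR's test in the fit of 72 libraries. From C26 it differed by -1.91 in Dnah11 and -0.70 in Samhd1. From MC38 it differed by 2.13 in Osmr, 2.08 in Tox2, 2.03 in D130040H23Rik, 1.98 in Sobp, 1.59 in Sdpr, 1.34 in Ica1 and 1.22 in Pdgfd. It differed from MC38 by -1.92 in Dnah11, -1.68 in Nmnat2, -1.37 in Rbfox1 and -0.95 in Plekhb2. Samhd1, Tox2 and Sobp are not among the 54 genes. None of these differences was called without the animal as block. With the 8025 and MC38 libraries alone, those of Tox2, Sobp, Sdpr, Ica1, Pdgfd and Plekhb2 were not called. With the 8025 and C26 libraries alone, neither Dnah11 nor Samhd1 was called (adjusted p = 0.26 for each).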

How the results depend on the processing

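The 54 genes kept their sign under every alternative tried. Their unadjusted p stayed under 0.05 in all of them except the fit without the replicate block (animal), where it did in 48. That fit, which ignores the pairing of libraries, called 3 genes in all. Against 54 called genes (30 above 0, 24 below), DESeq2 called 145, the fit without a filter on low counts 127 (51 above and 76 below), and the fit of 72 libraries 190 (131 and 59). Limma on ratios called 45, DESeq2 size factors 58, TMM over retained genes 54, and a replicate block by fraction 80. Leaving out 1 animal gave 19 (without CX animal 4) to 176 (without PBS animal 1). The other animals gave 25 (CX 2), 31 (CX 3), 33 (CX 1), 34 (PBS 4), 35 (PBS 2) and 46 (PBS 3). In hepatocyte nuclei the 3382 genes became 2236 (without PBS animal 1) to 3238 without 1 animal, and TMM over retained genes moved the split from 1917 higher and 1465 lower to 2130 and 1026. In whole liver nuclei 3025 became 2090 to 3062 without 1 animal. For C26 alone edgeR called 4 and DESeq2 41 genes, in place of 62 in the fit of 72 libraries; these alternatives were chosen after seeing the data.

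The test of 8025 against C26 called 3 genes. It called 0 without the replicate block and 0 with both cohorts alone, and 2 to 47 without 1 animal: 8 and 10 without 8025 PBS animals 4 and 2, and 14 and 47 without C26 PBS animals 4 and 1. The test of 8025 against MC38 called 11. It called 0 without the replicate block, 10 with both cohorts alone and 6 to 14 without 1 animal. The depth was lowest in hepatocyte nuclei of PBS animal 3 (8.49 M), and genes at a few counts there, such as Atp6v0a4, have uncertain folds. With 4 animals per group and 6 residual degrees of freedom, small differences could not be detected, and a gene that missed the threshold is not shown to change equally. The causes of these shifts were not tested.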
